A study of Drosophila melanogaster with 12 samples.

Results

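The X chromosome sites of 2 Polycomb Group proteins, PSC and PH, were followed through 6 ChIP-SEQ peak lists. The members are all peaks of PSC control replicate 1 that lie on X, chosen by chromosome alone. They number 696 of the 4830 peaks of that list. They were compared with the peaks of the same list on the autosomal arms 2L (901 peaks), 3L (979 peaks) and 3R (1189 peaks). Peaks are called found in another list when they overlap one of its peaks by at least 1 bp. Positions are 1-based in the dm3 build.

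PSC and PH were immunoprecipitated from Drosophila S2 cells, a line of embryonic origin. PSC was precipitated with a biotinylated antibody from unmodified S2 cells, in 2 replicates of each condition. PH was pulled down on streptavidin beads, without an antibody, from a stable S2 line that makes biotin-tagged PH, in 1 sample of each condition. The transgenes of this S2-PH line, tagged PH and the enzyme that attaches biotin to it, are expressed from a metallothionein promoter. Mitotic cells were arrested for 15 h with colchicine at 880 nM (350 ng/ml) and sorted on H3S10p, a histone mark of mitosis. Control cells were asynchronous, received no colchicine and were sorted on histone H3. Colchicine, the sorting antibody and the cell cycle state therefore changed together and cannot be told apart. All cells were fixed with formaldehyde before they were stained and sorted.

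PSC and PH are subunits of Polycomb Repressive Complex 1, which keeps developmental genes silent in cells where they should not be active. PSC can compact nucleosome arrays in vitro, and PH carries a SAM domain through which PH molecules join into chains. S2 cells are male in type and carry fewer copies of X than of each autosome, and in male flies the MSL complex binds along X and raises its transcription. Copy number and input reads were not analysed here, so the part of copy number in any difference between X and the autosomal arms was not tested.

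Every peak carries a MACS score, which rises as the p-value of the peak falls. A higher score is a peak that stands out further from its surroundings, and the score also rises with read depth. The lists were called separately and are not on a common scale, so levels are compared between arms only within a list. The highest score that the caller could usually give was 3100, which 10 X peaks of PSC control replicate 1 reached. The depth of each list is unknown, because the deposited lists carry no counts and the study gives only a range of mapped reads over its samples. The lists also start at different scores, PSC control replicate 1 at 160.75 and the PH control at 165.56. PSC control replicate 2 and PSC mitotic replicate 1 start at 50, mitotic PH at 50.19 and PSC mitotic replicate 2 at 72.85. A site absent from a list fell under the calling threshold there, which does not show that it was unbound. Intervals for shares are exact (Clopper-Pearson) 95% intervals and cover counting error within 1 list only. Differences between X and the pooled arms 2L, 3L and 3R come from linear or logistic models over all peaks of the 4 arms. Errors were clustered on 1 Mb blocks, with Benjamini-Hochberg adjustment over the 30 main tests. Second fits, fits added later and alternatives were adjusted apart from these. The p-values compare peaks within lists and do not measure the spread between cultures.

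In control cells, X carried fewer, lower and shorter peaks than the autosomal arms. PSC control replicate 1 had 31.2 peaks per Mb between the first and the last peak of X, against 39.2 on 2L, 40.1 on 3L and 42.6 on 3R. PSC control replicate 2 had 9.70 peaks per Mb on X, against 29.0 on 2L, 29.7 on 3L and 32.5 on 3R. In the PH control the density was 29.5 peaks per Mb on X and between 36.7 and 40.3 on the other arms. X was thus the lowest arm of the 4 in each of the 3 control lists, and in replicate 2 it lay furthest below the others. Of all peaks on chromosome arms, X held 14.5% in PSC control replicate 1, 6.48% in PSC control replicate 2 and 14.3% for PH.

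The median score of X peaks in PSC control replicate 1 was 457, with quartiles of 273 and 800. The medians of 2L, 3L and 3R were 675, 711 and 715. Fitted over all peaks, X scores were 0.702 times those of the other arms (n = 3765 peaks, 95% interval, 0.654 to 0.753, linear model of log2 score, adjusted p = 1.15e-15). The PH control gave a similar ratio of 0.723 (n = 3581 peaks, 0.671 to 0.779, adjusted p = 7.79e-13), with a median of 534 on X. In PSC control replicate 2 the ratio was 0.831 (n = 2505 peaks, 0.760 to 0.908, adjusted p = 0.000196), with a median of 85.5 on X and between 102.3 and 113 on the other arms. With only peaks of a score of at least 100, the difference in replicate 2 no longer passed the test (adjusted p = 0.145, n = 1329 peaks). The 6 lists are set side by side in the plot of peak density and score by arm.

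**Figure D1:**
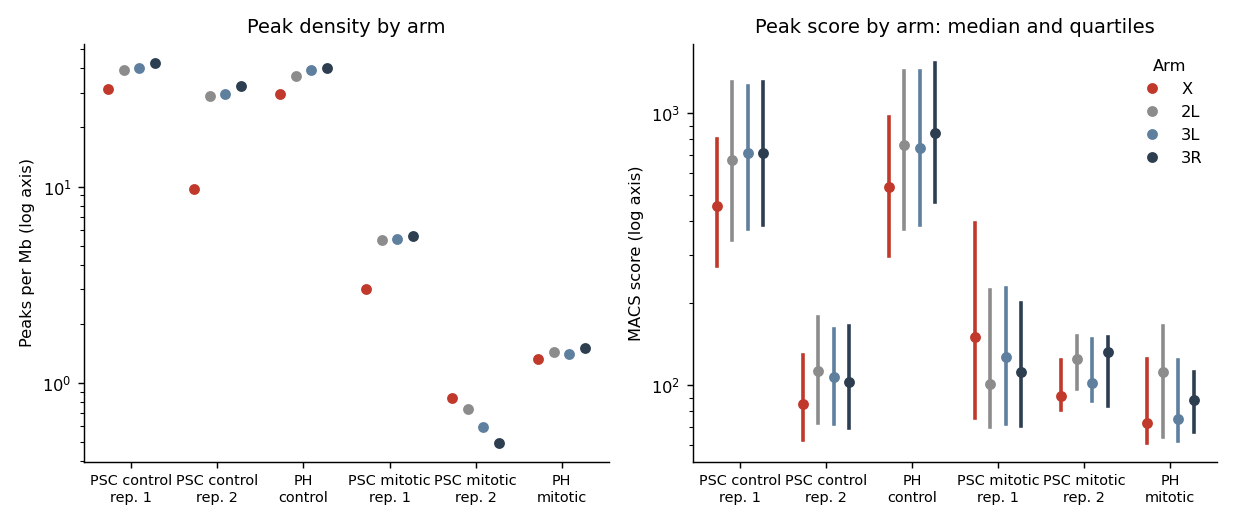
Left, peaks per Mb between the first and last peak of each arm (log axis) in the 6 lists. Right, median MACS score (points) with quartiles (bars, log axis). X is in red and 2L, 3L and 3R in grey, blue and black. X has the lowest density in the 3 control lists, most so in PSC control replicate 2 (9.70 peaks per Mb), and the highest in PSC mitotic replicate 2 (0.835 peaks per Mb). Densities count listed peaks only.

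X peaks were also shorter. Their median length in PSC control replicate 1 was 1538 bp, against 1768 bp on 2L, 1751 bp on 3L and 1691 bp on 3R. The fitted ratio was 0.870 in PSC control replicate 1 (n = 3765 peaks, 95% interval, 0.831 to 0.910, adjusted p = 1.07e-07), 0.850 in replicate 2 (adjusted p = 2.22e-05) and 0.876 in the PH control (adjusted p = 8.37e-06). Length rises with score within a list, with a Spearman's rho of 0.640 across the X peaks and 0.642 across the peaks of the other arms of PSC control replicate 1. With the score in the model, the length ratio of PSC control replicate 1 was 0.972 (n = 3765 peaks, 0.936 to 1.01, adjusted p = 0.205) and that of the PH control 0.958 (0.918 to 0.999, adjusted p = 0.0788). Only PSC control replicate 2 kept a difference past the threshold (0.890, n = 2505 peaks, 0.845 to 0.9375, adjusted p = 0.000101). In replicate 2, peaks of a score of at least 100 showed no length difference past the threshold in the fit without the score (adjusted p = 0.189, n = 1329 peaks).

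Peaks on X stood further apart. Spacing and grouping depend on peak density, so these measures in part restate the lower density of X. They were not compared at equal density. The median distance between the centres of neighbouring peaks was 12.9 kb on X in PSC control replicate 1, and 10.6, 10.997 and 10.1 kb on 2L, 3L and 3R. In the model of log2 distance, X distances were 1.22 times those of the other arms in PSC control replicate 1 (n = 3761 neighbouring pairs, 1.09 to 1.36, adjusted p = 0.00169), 1.25 times in the PH control (1.12 to 1.40, adjusted p = 0.000352) and 2.50 times in PSC control replicate 2 (1.86 to 3.36, adjusted p = 1.07e-07). A neighbour within 10 kb was present for 490 of the 696 X peaks (70.4%, 95% interval of 66.9 to 73.8%), and for 76.0 to 79.1% of the peaks of the other arms. With peaks joined into groups wherever gaps were at most 10 kb, 206 X peaks (29.6%) stood alone, against 20.9 to 24.0% on the other arms. Groups of 5 or more peaks held 151 X peaks (21.7%), against 25.03 to 31.7% on the other arms.

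The largest X group held 11 peaks over 63.5 kb, from 5773205 to 5836711, with a highest score of 3100. PSC control replicate 2 overlapped 6 of these peaks and the PH control 9. PSC mitotic replicate 1 overlapped 3, PSC mitotic replicate 2 overlapped 1 and mitotic PH none. There were 4 groups of 7 peaks. Of these, the ones with the highest scores spanned 1958679 to 1989106, with 1 peak found in each of the 3 mitotic lists, and 510883 to 552880, with 1 peak found in PSC mitotic replicate 1 only. Over all X peaks, PSC control replicate 2 overlapped 27.9% and the PH control 88.5%. PSC mitotic replicate 1 overlapped 8.76% of all X peaks, PSC mitotic replicate 2 overlapped 2.01% and mitotic PH 3.16%. These counts are a description of single groups with no test.

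A larger share of X peaks than of autosomal peaks appeared to have been removed when 2 of the control lists were filtered. MACS numbers its peaks along each chromosome, and numbers missing between the first and the last peak of an arm were read as peaks that were called but later removed. On X, 311 of 1007 numbers (30.9%) were missing from PSC control replicate 1, against 18.9% on 2L, 21.2% on 3L and 19.9% on 3R. In the PH control 29.6% of X numbers were missing, against 19.2 to 20.03% on the other arms. Counted with the missing numbers, X had 45.2 calls per Mb in PSC control replicate 1, and 2L, 3L and 3R had 48.4, 50.9 and 53.3. X was still the lowest of the 4 arms. In PSC control replicate 2 and in PSC mitotic replicate 1 no number was missing within any of these arms. No removal was thus visible in these lists. Unless peaks were removed before numbering, the low number of X peaks in PSC control replicate 2 was present among the calls themselves. PSC mitotic replicate 2 went the other way, with 4 of 18 X numbers missing (22.2%), against 35% on 2L, 38.9% on 3L and 45% on 3R. Counted with the missing numbers, X had 1.07 calls per Mb in that list, and 2L, 3L and 3R had 1.14, 0.974 and 0.898.

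The peak lists of the control replicates differed most on X. The paper reports good agreement between these replicates by the correlation of reads within called peaks, a measure over all peaks that does not compare lists. It also states that some sets of samples were fragmented again before library making, without naming them. Of the 696 members, 194 were found in PSC control replicate 2 (27.9%, 95% interval of 24.6 to 31.4%). On 2L the share was 68.7%, on 3L 67.9% and on 3R 71.1%, and over all 4830 peaks it was 62.9%. The odds of being found, that is peaks found over peaks not found, were 0.171 times as high on X as on the other arms (n = 3765 peaks, 95% interval, 0.135 to 0.217, logistic model, adjusted p = 1.61e-46). With the score of PSC control replicate 1 held, the odds ratio was 0.1803 (n = 3765 peaks, 0.141 to 0.230, adjusted p = 6.82e-42). Holding the score assumes that a given score stands for the same binding on every arm, and this assumption was not tested.

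The gap was present at each level of score. In the highest of 10 score deciles of the 4 arms, 19 of 24 X peaks were found in PSC control replicate 2 (79.2%), against 339 of 353 on the other arms (96.0%). In the second decile, 17 of 36 X peaks (47.2%) and 320 of 340 other peaks (94.1%) were found. In the fifth decile, 31 of 69 X peaks (44.9%) and 76.2% of the others were found, and in the lowest 5 of 99 (5.05%) and 28.1%. In the reverse direction, replicate 1 had a peak at 203 of the 211 X peaks of replicate 2 (96.2%). X peaks of replicate 2 were thus nearly all known from replicate 1, while most X peaks of replicate 1, strong ones included, were not listed in replicate 2. At the peaks listed in both replicates, the score in replicate 2 relative to replicate 1 did not separate X from the other arms, with a ratio of ratios of 1.01 (n = 2323 peaks, 0.924 to 1.095, adjusted p = 0.952). With the score of replicate 1 held, a fit added after the data were seen, this was 0.908 (n = 2323 peaks, 0.838 to 0.984, adjusted p = 0.0337). Both fits leave out the peaks under the floor of replicate 2, a larger share on X than on the other arms. Those listed had a median replicate 2 score of 90.2 on X and 111.7 on the other arms, above a floor of 50. The ratios therefore do not cover the X peaks that replicate 2 did not list.

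**Figure D2:**
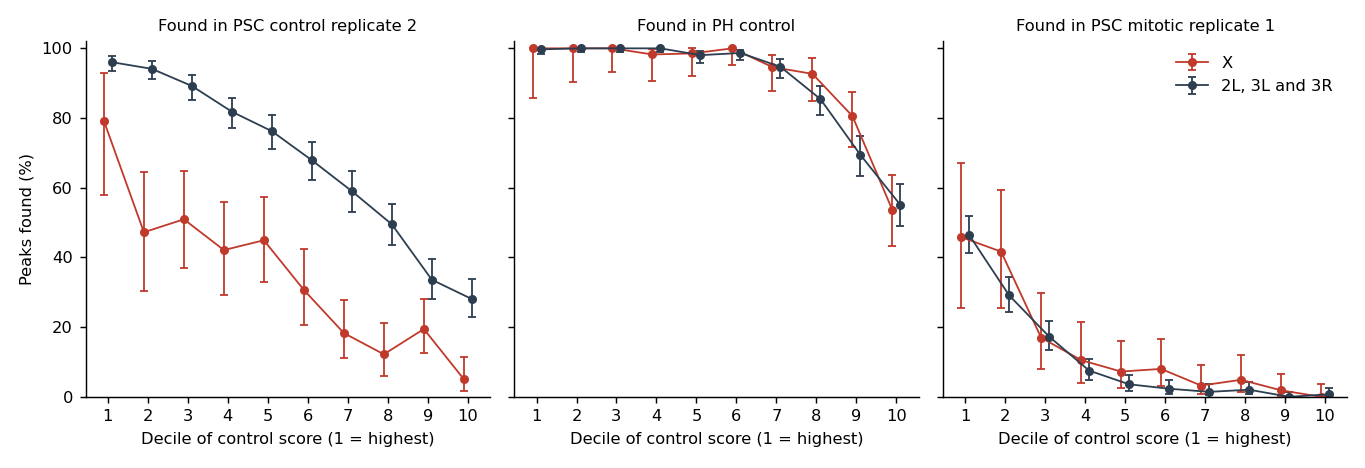
Percentage of PSC control replicate 1 peaks found in PSC control replicate 2, the PH control and PSC mitotic replicate 1, by decile of control score over the 4 arms (1 is the highest). Red, X. Black, 2L, 3L and 3R together. Bars are exact 95% intervals. X lies below the other arms in every decile for PSC control replicate 2 (79.2% against 96.0% in the highest), and follows them closely for the PH control.

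PH was present at most X sites of PSC. Of the 696 X peaks, 616 were found in the PH control (88.5%, 95% interval of 85.9 to 90.8%), against 89.9% on 2L, 91.7% on 3L, 91.3% on 3R and 91.2% over all 4830 peaks. The odds ratio of X was 0.761 (n = 3765 peaks, 0.580 to 0.999, adjusted p = 0.0698), and 1.32 with the score held (0.998 to 1.74, adjusted p = 0.06996), so a difference in sharing was not shown in either fit. The first of these passed the threshold with 2R added to the comparison arms, without 2L, and with peaks counted as shared within 500 bp. All of the X peaks in the 3 highest score deciles had a PH peak. In the lowest decile, 53 of 99 X peaks had one (53.5%), and 55.0% of the peaks of the other arms. Of the 658 X peaks of the PH control, 605 (91.9%) overlapped a peak of PSC control replicate 1. PSC and PH scores of the 616 X peaks found in both lists had a Spearman's rho of 0.815, a value across peaks of 2 libraries and not across replicates. PH scores relative to PSC scores were 1.05 times as high on X as on the other arms (n = 3409 peaks, 1.01 to 1.096, adjusted p = 0.0392), a difference that did not pass the threshold with 2L or 3L left out, within 500 bp or with the control score held.

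The 80 X peaks without a PH peak had low scores, with a median of 205 against 518.5 for the X peaks with one. The highest was the peak from 13590271 to 13593819, with a score of 844.56. The next were at 17388928 to 17390602 (score 688.07), 16729144 to 16731013 (score 499.05), 12860868 to 12862112 (score 456) and 17987865 to 17989853 (score 409.52). None of these 5 was in any other list. Of all 80, 7 were found in PSC control replicate 2 and 0 in a mitotic list. On the other arms 276 peaks had no PH peak, of which 55 were found in PSC control replicate 2 and 1 in a mitotic list. Over all 4830 peaks, with or without PH, 62.9% were found in PSC control replicate 2 and 11.6% in PSC mitotic replicate 1. A near absence from the mitotic lists was thus not particular to X. In all, 73 X peaks (10.49%) were in no other list, against 7.17% on the other arms, and their scores ran from 161.16 to 844.56.

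The most common pattern on X was a PSC peak shared with PH only, at 401 of the 696 sites (57.6%). On the other arms this pattern held for 22.9% of peaks, and the most common pattern there was a site shared with both PSC control replicate 2 and the PH control, at 55.8%. On X, 152 sites (21.8%) had that pattern. The PH control was made from the S2-PH line with streptavidin and no antibody, and PSC control replicate 2 from unmodified S2 cells. The X odds ratio for being found in PSC control replicate 2 was 0.224 times that for being found in the PH control (n = 3765 peaks, 0.168 to 0.300, test of the difference over the same peaks, added after the data were seen, adjusted p = 6.99e-23). X sites of PSC control replicate 1 were thus recovered in the other protein and line more often, relative to the autosomal arms, than in the second replicate of the same protein and line.

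Mitotic cells kept a small share of the X sites, and the 3 mitotic lists placed X differently against the autosomal arms. PSC mitotic replicate 1 overlapped 61 of the 696 X peaks (8.76%, 95% interval of 6.77 to 11.1%), against 12.4% on 2L, 11.6% on 3L, 12.4% on 3R and 11.6% over all peaks. PSC mitotic replicate 2 overlapped 14 X peaks (2.01%, 1.104 to 3.35%), against 1.44% on 2L, 1.12% on 3L, 0.925% on 3R and 1.1% over all peaks. Mitotic PH overlapped 22 X peaks (3.16%, 1.99 to 4.75%), against 2.86 to 3.28% on the other arms and 3.02% over all peaks. X was the lowest arm in the first list and the highest in the second, and lay within the range of the others for PH. In the second list, X also had the smallest share of missing numbers (22.2%, against 35 to 45% on the other arms). With those numbers counted, the density of X (1.07 calls per Mb) lay below that of 2L (1.14).

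**Figure D3:**
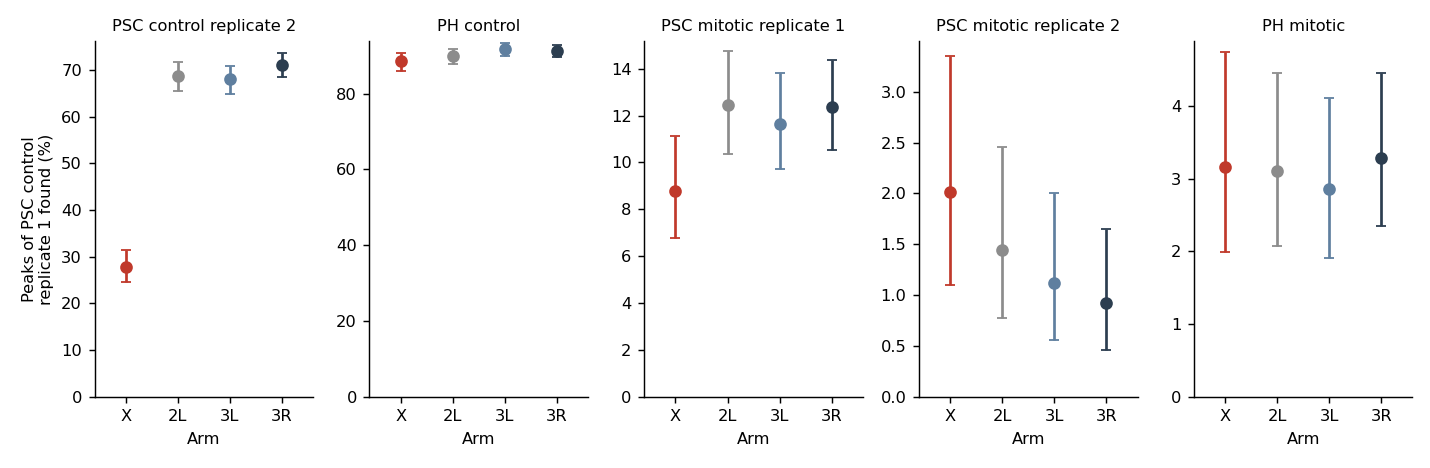
Percentage of PSC control replicate 1 peaks found in each of the other 5 lists, by arm, with exact 95% intervals. Each panel has its own vertical axis, which starts at 0. X (red) is far below the other arms in PSC control replicate 2 (27.9% against 67.9 to 71.1%), and the intervals of X overlap those of the other arms in the 3 mitotic lists.

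Without regard to score, the X odds ratio was 0.694 for PSC mitotic replicate 1 (n = 3765 peaks, 0.510 to 0.945, adjusted p = 0.0360), 1.78 for PSC mitotic replicate 2 (0.969 to 3.27, adjusted p = 0.0821) and 1.02 for mitotic PH (0.592 to 1.76, adjusted p = 0.971). The first passed the threshold in 7 of 13 alternatives only, and it was lost, for example, with 2 Mb blocks (n = 3765 peaks, adjusted p = 0.05996). The X odds ratio of PSC mitotic replicate 2 was 2.56 times that of replicate 1 (n = 3765 peaks, 1.45 to 4.53, test of the difference, added after the data were seen, adjusted p = 0.00243). As called, the replicate lists therefore did not give the same account of how X compares with the other arms in mitosis. Over these full lists the X log2 odds ratio was -0.53 for replicate 1 and 0.83 for replicate 2. Where mitotic peaks needed a score of at least 100, the X log2 odds ratio was -0.31 for replicate 1 and 0.0031 for replicate 2. The 2 lists thus lay closer together there. The difference between the replicates was not tested at that score.

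With the control score held, X sites were found more often in all 3 mitotic lists. These lists are of unequal size and quality. PSC mitotic replicate 1 has 578 peaks, PSC mitotic replicate 2 only 60 and mitotic PH 149. The paper describes a lower signal to noise for mitotic PH and left that profile out of its later analysis. The odds ratio was 1.57 for PSC mitotic replicate 1 (n = 3765 peaks, 1.165 to 2.125, adjusted p = 0.00626), 4.41 for PSC mitotic replicate 2 (2.50 to 7.76, adjusted p = 1.21e-06) and 2.74 for mitotic PH (1.71 to 4.37, adjusted p = 7.00e-05). The same caution on equal scores applies as for the control replicates. In the 3 lists the X sites found had control scores below those of the autosomal sites found. The median control score of sites found in PSC mitotic replicate 1 was 1215 on X and 1852 on the other arms, for PSC mitotic replicate 2 it was 1317 and 2151, and for mitotic PH 1384 and 2572. The call for PSC mitotic replicate 1 was lost among the upper 50% of peaks by score (n = 1849 peaks, adjusted p = 0.108) and with PSC control replicate 2 as the set. That for PSC mitotic replicate 2 was lost where mitotic peaks needed a score of at least 100 (n = 3765 peaks, adjusted p = 0.101).

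Among X sites, those kept in mitosis were the stronger ones in control cells, though not only the strongest. The 635 X peaks not found in PSC mitotic replicate 1 had a median control score of 430 and reached 3156.32, and the 61 found ranged from 286.35 to 3100. Of the 100 X peaks with the highest control score, 33 were found in PSC mitotic replicate 1. In the highest decile of the 4 arms, 11 of 24 X peaks (45.8%) and 46.5% of the others were found. In the second, these were 15 of 36 (41.7%) and 29.1%, in the third 9 of 53 (16.98%) and 17.3%, and in the sixth 6 of 75 (8%) and 2.32%. X was above the other arms in 7 of the 10 deciles and below them in the highest, the third and the lowest, where 0 of 99 X peaks and 0.719% of the others were found.

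X peaks of PSC mitotic replicate 1 were few and had the highest median of the 4 arms. Their median score was 151 over 62 peaks, against 101 on 2L, 127 on 3L and 111 on 3R, with upper quartiles of 396 on X and between 200 and 228 elsewhere. The fitted ratio over all peaks was 1.24 (n = 444 peaks, 1.01 to 1.52, adjusted p = 0.0625). At the sites found in both lists, which excludes those under the floor of the mitotic list, the mitotic score relative to the control score was 1.95 times as high on X as on the other arms (n = 434 peaks, 1.515 to 2.51, adjusted p = 3.70e-06). This ratio passed the threshold in all 11 alternatives run for it, of which the fit with the control score held was 1. X sites found had lower control scores than autosomal sites found, so the ratio also carries that difference. With the control score held, a fit added after the data were seen, the ratio was 1.55 (n = 434 peaks, 1.27 to 1.89, adjusted p = 8.41e-05). For mitotic PH the corresponding ratio was 1.535 (n = 117 peaks, 1.12 to 2.11, adjusted p = 0.0168), and 1.01 with the control score held (0.834 to 1.22, adjusted p = 0.918). For PSC mitotic replicate 2 it was 1.24 (n = 49 peaks, 0.956 to 1.61, adjusted p = 0.128), and 0.862 with the control score held (0.691 to 1.08, adjusted p = 0.220). Among sites found, a higher mitotic score on X with the control score held was therefore seen in PSC mitotic replicate 1, in a single fit, and was not shown in the other mitotic lists.

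**Figure D4:**
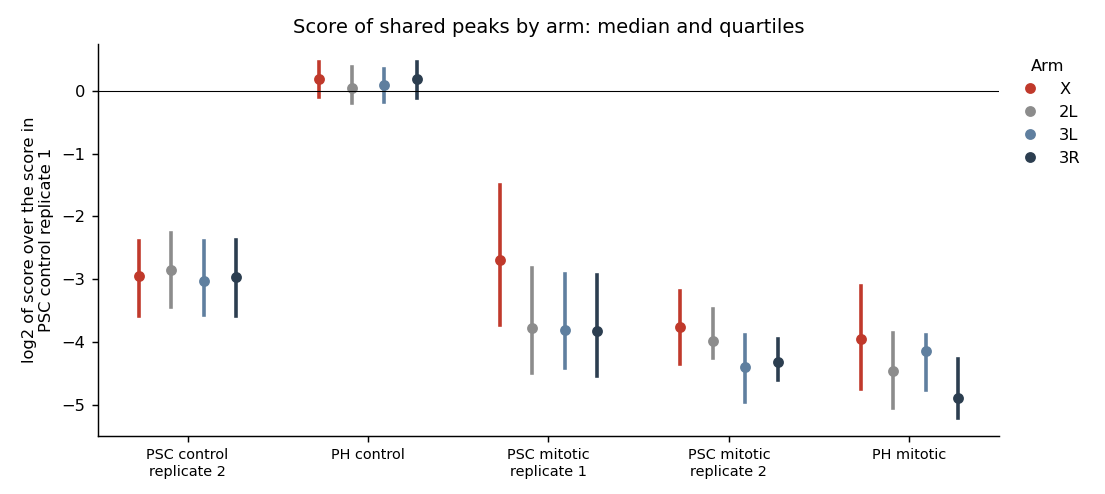
log2 of the score in each of the other 5 lists over the score of the same peak in PSC control replicate 1, by arm, for the peaks found in both lists. Points are medians and bars span the quartiles. In PSC mitotic replicate 1 the X median was -2.70 and those of the other arms lay between -3.83 and -3.78.

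The shortage of X peaks in PSC control replicate 2 was also present at the sites kept in mitosis. Of the 61 X sites of PSC mitotic replicate 1, 34 were found in that control list (55.7%, 95% interval of 42.4 to 68.5%), against 357 of 373 on the other arms (95.7%, 93.1 to 97.5%). Over all members the share found in that list was 27.9% on X and 69.4% on the other arms, so sites with a mitotic peak had a higher share listed there than all sites of the same arms, on X as elsewhere. The odds ratio was 0.0564 (n = 434 peaks, 0.0268 to 0.119, logistic model added after the data were seen, adjusted p = 1.42e-13), and 0.0817 with the control score held (0.0393 to 0.170, adjusted p = 6.42e-11). The other 27 X sites had a peak in PSC control replicate 1, the PH control and PSC mitotic replicate 1. On the other arms 16 sites with a mitotic peak were not in PSC control replicate 2.

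The shorter mitotic lists lay mostly within PSC mitotic replicate 1, on X as on the other arms. PSC mitotic replicate 1 had a peak at each of the 14 X sites of PSC mitotic replicate 2, and mitotic PH had one at 13 of them. PSC mitotic replicate 1 also had a peak at 20 of the 22 X sites of mitotic PH. On the other arms these counts were 34 of 35 and 91 of 98. In the reverse direction, PSC mitotic replicate 2 overlapped 14 of the 62 X peaks of PSC mitotic replicate 1 (22.6%) and mitotic PH 20 of them (32.3%), against 8.90% and 23.8% on the other arms. Over the 696 members, 633 X peaks were in no mitotic list, 42 in 1, 8 in 2 and 13 in all 3. Of the 3069 peaks of the other arms, these counts were 2690, 279, 76 and 24. In all 6 lists were 12 X peaks (1.72%) and 24 peaks of the other arms (0.782%), a difference that was not tested.

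The 15 X sites with the highest score in PSC mitotic replicate 1 among those in at least 2 mitotic lists show how control and mitotic scores compare at single sites. The site from 5630948 to 5632854 had scores of 1422.24 and 176.87 in PSC control replicates 1 and 2, 2732 in the PH control, 1241.16 and 79.14 in PSC mitotic replicates 1 and 2, and 314.8 in mitotic PH. Its score in PSC mitotic replicate 1 was the highest on X, while it ranked 961 of the 4830 peaks by score in PSC control replicate 1. The site from 15032833 to 15034373 had scores of 939.51 and 103.53 in the PSC controls, 1601.16 in the PH control, 839.12 in PSC mitotic replicate 1 and 57.2 in mitotic PH, with no peak in PSC mitotic replicate 2. Its rank was 1697 in PSC control replicate 1.

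The site from 7826800 to 7828264 had a PSC score of 1606.61 in control replicate 1 with no peak in control replicate 2, a control PH score of 1939.85, scores of 754.62 and 72.85 in the PSC mitotic replicates and 93.87 in mitotic PH. It is the single X site found in all 3 mitotic lists but not in PSC control replicate 2. Beside it lay the one X peak of any mitotic list without a peak in PSC control replicate 1. This peak ran from 7824978 to 7825929 in PSC mitotic replicate 1, with a score of 63.17, and it lay 870 bases from the nearest peak of PSC control replicate 1. It had no peak in PSC control replicate 2 or the PH control either.

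The site from 3999277 to 4000816 had scores of 1198.41 and 118.46 in the PSC controls, 1242.62 in the PH control, 718.85 and 132.16 in the PSC mitotic replicates and 143.3 in mitotic PH. The site from 11588339 to 11589882 had 1345.96 and 163.58 in the PSC controls, 1356.19 in the PH control, 503.57 and 143.28 in the PSC mitotic replicates and 73.38 in mitotic PH. The site from 18132748 to 18134239 had 1199.16 and 90.15 in the PSC controls, 1126.34 in the PH control, 442.38 and 94.08 in the PSC mitotic replicates and 156.68 in mitotic PH. These 3 sites had control ranks of 1252, 1043 and 1250 in PSC control replicate 1, so they lay well below its strongest peaks. At those starting at 3999277 and 18132748, the score in PSC mitotic replicate 2 was above that in PSC control replicate 2, though scores of separate lists are not on a common scale.

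The site from 10660966 to 10663198 had a score of 1869.37 in PSC control replicate 1 and 658.19 in PSC mitotic replicate 1, and the site from 1973816 to 1975283 had 1287.93 and 497.38. The sites at 16530713 to 16532537 and 5565235 to 5567301 had mitotic scores of 470.13 and 441.78 and mitotic PH scores of 50.19 and 55.86. Lower control scores were seen at 18737127 to 18738316 (890.15), 13457062 to 13458476 (767.72) and 6990813 to 6992906 (792.6), and each of these was in all 6 lists. The site at 7179255 to 7181520 had a control score of 3006.98 and a score of 321.81 in PSC mitotic replicate 1, the lowest mitotic score of the 15.

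**Figure D5:**
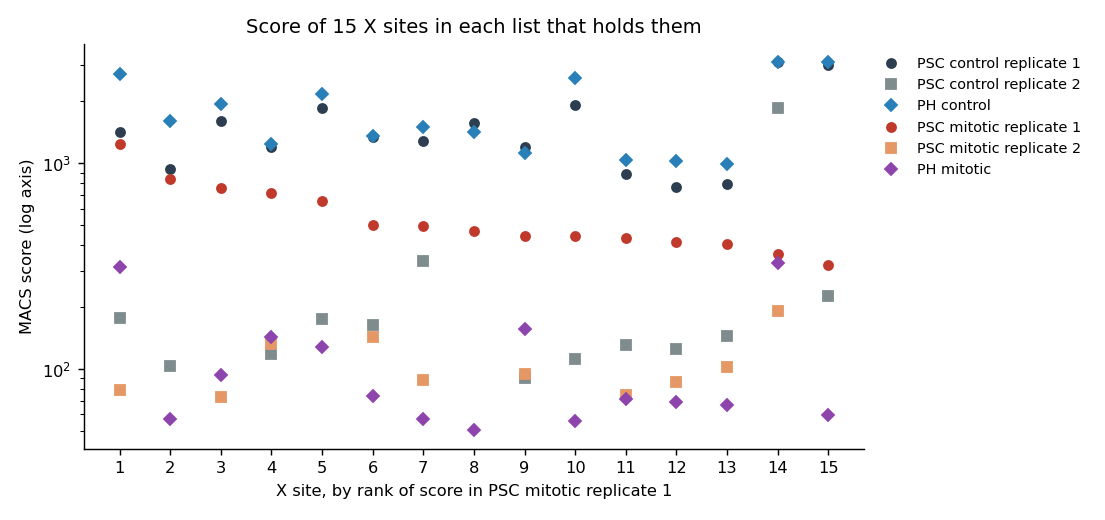
MACS score (log axis) of 15 X sites in each list that holds them, in the order of their score in PSC mitotic replicate 1. A missing symbol means that the list has no peak there. Scores in PSC mitotic replicate 1 (red circles) fall from 1241.16 to 321.81, while scores in PSC control replicate 1 (black circles) lie between 767.72 and 3100. Site 14 is the longest X peak, with a score of 1860.04 in PSC control replicate 2 where the others that have a peak there lie at 335.32 or below.

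The longest X peak was a broad region from 12612115 to 12648667, 36.6 kb in PSC control replicate 1, where it was the fifth longest peak on the chromosome arms and had the ceiling score of 3100. It was 39.5 kb long in PSC control replicate 2 (score 1860.04) and 42.9 kb in the PH control (score 3100). It was 29.4 kb in PSC mitotic replicate 1 (score 363.84), 8.54 kb in PSC mitotic replicate 2 (score 191.07) and 34.2 kb in mitotic PH (score 329.11). It was the longest arm peak of PSC mitotic replicate 2 and of mitotic PH, where the next longest were 1685 bp and 7371 bp. The left edge of the peak moved between lists, whereas its right edge lay between 12648644 and 12648670 in all 6, within 26 bp. A further peak followed from 12648868, 12648870 or 12648871 in PSC control replicate 1, the PH control, PSC mitotic replicate 1 and mitotic PH. In PSC control replicate 1 this neighbour was 7.16 kb long with a score of 3100. Whether this region has more copies than its surroundings was not tested.

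The X peaks with the highest control scores fell on both sides. With ties at the ceiling, 11 X peaks made up the highest 10. All 11 were found in the PH control and 9 in PSC control replicate 2. In the highest score decile of the other arms, 99.7% of peaks were found in the PH control and 96.0% in PSC control replicate 2. In that decile, 46.5% were found in PSC mitotic replicate 1. In mitosis, 6 were found in at least 1 list and 2 in all 3, namely the broad region at 12612115 and the site from 13888269 to 13891428. The latter had scores of 3100 and 470.16 in the PSC controls, 3100 in the PH control, 257.39 and 99.78 in the PSC mitotic replicates and 109.3 in mitotic PH. The site from 19759016 to 19761782 had scores of 3100 and 523.55 in the PSC controls and 341.87 in PSC mitotic replicate 1, with no peak in the other mitotic lists.

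No mitotic list had a peak at the other 5. The first, from 13782280 to 13785726, had the highest score on X, 3156.32, a control PH score of 3100 and a score of 243.59 in PSC control replicate 2. The others were at 5792208 to 5797182 (score of 140.84 in PSC control replicate 2), 6752094 to 6758107 (no peak there), 7197885 to 7202721 (165.55) and 9577819 to 9582619 (150.44), each with a score of 3100 in PSC control replicate 1. The peak at 7197885 lay beside one from 7193182 to 7196609 with the same control score, 167.3 in PSC control replicate 2 and 3100 for control PH, and that neighbour was found in PSC mitotic replicate 1 (score 106.61). The second longest X peak, from 19777376 to 19788966 (11591 bp, score 2336.88), had a PH peak of score 1556.75 and was in no other list.

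Control sites lay along the whole of X, and mitotic sites in most of its windows. In 3 equal stretches of the span of X there were 237, 237 and 222 peaks, with median scores of 440, 447 and 474. PSC mitotic replicate 1 overlapped 22 of the 237 nearest position 1 (9.28%, 95% interval of 5.91 to 13.7%), 26 of the middle 237 (10.97%, 7.29 to 15.7%) and 13 of the 222 (5.86%, 3.15 to 9.81%), and these intervals overlap. In windows of 2 Mb, PSC mitotic replicate 1 overlapped 9 peaks in each of the windows from 4 to 6, 6 to 8 and 8 to 10 Mb (16.4%, 12.2% and 15.8%), and 1 of 64 from 14 to 16 Mb (1.56%). Mitotic PH overlapped 6 peaks from 6 to 8 Mb and 5 from 12 to 14 Mb, and PSC mitotic replicate 2 overlapped 4 in the latter. The share found in PSC control replicate 2 was lowest from 10 to 12 Mb, at 9 of 71 peaks (12.7%), and highest from 12 to 14 Mb, at 25 of 70 (35.7%), leaving out the last window with 3 peaks. It was thus below the share of any autosomal arm in every window of X. Windows were described and not tested. Genes and sequences at these positions are not given because no annotation or genome of dm3 was used here.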

How the data were processed

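The analysis used 6 peak lists, 1 for each ChIP sample, and input samples were not analysed here. Per the methods and labels, the authors mapped reads of 36 bp to dm3 by Bowtie 1.1.2, used uniquely mapping reads, and called peaks in each sample with MACS (version 1.0.1 in the submitters' processing notes; bandwidth 200, p-value cutoff 1e-05). The study states a false discovery rate of 5% for control peaks and mitotic PSC peaks, and a less strict one for mitotic PH. No removed peak numbers were seen in PSC control replicate 2 or PSC mitotic replicate 1, which reach down to a score of 50. PSC mitotic replicate 1 has 566 peaks on chromosome arms, the number that the study reports for mitotic PSC at that rate. A lack of missing numbers thus does not show that no filter was applied, and for PSC control replicate 2 this is not clear. The deposited score of each peak is the MACS score and is not normalized between lists. How input reads entered the calling is not given in the sources used here.

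Overlaps were counted in Python 3.11.15 with pandas 2.3.3, and matched bedtools 2.31.1 in 30 of 30 pairs of lists. Linear models of log2 score, log2 length, log2 distance and log2 score ratio, and logistic models of overlap, were fitted with statsmodels 0.14.6 on an indicator of X over the peaks on X, 2L, 3L and 3R, with errors clustered on 1 Mb blocks. p-values were adjusted over the 30 main tests, and over 12 tests for those added later, at a threshold of 0.05. The length fits with the score held and the fits of neighbours within 10 kb were adjusted together over 9 tests. Each other alternative was adjusted over its own fits. The fits were tested on simulated data. The members, sites and tests were chosen with earlier results of these data known. The sites named were those with the 10 highest scores, those in at least 2 mitotic lists (15 by score in PSC mitotic replicate 1), the 5 highest without a mitotic or a PH peak, the 5 longest, the 3 largest groups and mitotic peaks without a control peak. Alternatives were a score of at least 100, other comparison arms, 2 Mb blocks, an overlap of 50% of the shorter peak or a distance of 500 bp, PSC control replicate 2 as the set, the upper 50% by score, Fisher's exact test and score deciles.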

Additional observations from a re-analysis of the deposited data

Results flagged for a closer look

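The X odds ratio for being found again differed between 1 PSC list and the PH list of each condition. Each test sets single libraries against each other over peaks, so it compares these lists and not the S2 and S2-PH lines. In control cells, the ratio for PSC control replicate 2 was 0.224 times that for the PH control (log2 difference of -2.16 ± 0.21, SE, n = 3765 peaks, adjusted p = 6.99e-23, test of the difference over the same peaks). In mitotic cells, the ratio for mitotic PH was 0.574 times that for PSC mitotic replicate 2 (log2 difference of -0.80 ± 0.36, SE, n = 3765 peaks, adjusted p = 0.0367), and 1.47 times that for PSC mitotic replicate 1 (0.936 to 2.31, adjusted p = 0.126). The protein, the line, the pull-down and the library changed together. In control cells PSC control replicate 1, of the same protein and line as replicate 2, held 14.5% of its arm peaks on X, the PH control 14.3% and PSC control replicate 2 6.48%, so there the 2 PSC replicates differed as well. PH has 1 sample in each condition, and PSC mitotic replicate 2 differed from PSC mitotic replicate 1 by a factor of 2.56 in the same test. The differences between mitotic lists were tested over the full lists and not at a score of at least 100.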

How the results depend on the processing

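Of the values recomputed under an alternative, 247 kept their direction and side of the threshold, 17 changed direction, 23 lost a call and 13 gained one. Values here are log2 differences or log2 odds ratios of X against the other arms. At a score of at least 100, calls were lost for score (-0.13) and length (-0.12) in PSC control replicate 2, the share in PSC mitotic replicate 1 (-0.31), the score-held share in PSC mitotic replicate 2 (1.23) and the mitotic PH score ratio (0.78). Calls were gained for score in PSC mitotic replicate 1 (0.32) and the score ratio in PSC mitotic replicate 2 (0.56), and the direction turned for mitotic PH score (0.063), length (0.29) and share (-0.22) and for length in PSC mitotic replicate 2 (0.40). Without 2L, mitotic PH length turned (0.043), the PH control share (-0.48) and the score ratio in PSC mitotic replicate 2 (0.50) gained a call and the PH control score ratio lost it (0.060). Without 3L, the mitotic PH share (-0.021) and the score ratio in PSC control replicate 2 (-0.011) turned and the PH control score ratio lost its call (0.044). Without 3R, the share in PSC mitotic replicate 1 (-0.51) and the mitotic PH score ratio (0.52) lost their calls and the score ratio in PSC control replicate 2 turned (-0.0040).

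With 2R added, calls were gained for score in PSC mitotic replicates 1 (0.32) and 2 (-0.31), the PH control share (-0.47) and the share in PSC mitotic replicate 2 (1.08). With 2 Mb blocks the share in PSC mitotic replicate 1 lost its call (-0.53). Within 500 bp, the PH control share (-0.45) and the share in PSC mitotic replicate 2 (1.03) gained calls and the PH control score ratio lost it (0.037). In the upper 50% by score, the share in PSC mitotic replicate 1 lost its call without (-0.18) and with the score held (0.43), the share in PSC mitotic replicate 2 gained one (1.54) and the score-held PH control share turned (-0.76). Without peaks at the ceiling, the share in PSC mitotic replicate 1 (-0.37) and the mitotic PH score ratio (0.51) lost their calls and the score ratio in PSC control replicate 2 turned (-0.012). Without the broad X region the mitotic PH share turned (-0.11). With the peak score held, length lost its call in PSC control replicate 1 (-0.040) and the PH control (-0.063) and turned in PSC mitotic replicate 2 (0.015) and mitotic PH (0.021). With the control score held, the score ratio turned in PSC control replicate 2 (-0.14) and PSC mitotic replicate 2 (-0.21) and lost its call in the PH control (0.017) and mitotic PH (0.014). The causes were not tested.

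With PSC control replicate 1 left out, peaks of PSC control replicate 2 were the set, and the 211 X peaks of that list were followed. The share in PSC mitotic replicate 1 turned (0.0077), those in PSC mitotic replicate 2 (2.08) and mitotic PH (1.08) gained calls, and the score-held share in PSC mitotic replicate 1 (0.55) and the score ratios in the PH control (0.084) and mitotic PH (0.34) lost theirs. The share of these peaks found in PSC control replicate 1 showed no call (-0.26) and turned with the score held (0.23). No paired analysis was possible because each list is a set of calls and the tests are over peaks, so no fit over samples with a replicate block exists. Paired by number, PSC mitotic replicate 1 overlapped 8.76% of the X peaks of PSC control replicate 1 and 12.2% of those of the other arms, whereas PSC mitotic replicate 2 overlapped 13 of the 211 X peaks of PSC control replicate 2 (6.16%) and 1.53% of those of the other arms, the opposite direction. The depth of each list is unknown, so whether list sizes follow depth was not tested.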
